A study of Mus musculus with 6 samples.

Results

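Control B and miR-200 A are 2 of the 6 cultures of 344SQ cells measured here, and their arrays stood apart from the arrays of the other 4 cultures. They were chosen by their titles after earlier results of the same data had shown that they stood apart, so the gap to the other 2 cultures of each vector is described below and is not tested. 344SQ is a mouse lung adenocarcinoma line from a subcutaneous-site tumour of 1 animal with the genotype p53R172H∆g/+ K-rasLA1/+, so both groups carry the same activated K-ras allele and mutant p53 allele. The cells had received a lentivirus with the miR-200b-200a-429 cluster (3 cultures, miR-200 A, B and C) or a control vector (3 cultures, control A, B and C), both kinds were sorted as pools of GFP-positive cells, selected with puromycin and grown in RPMI 1640 with 10% FBS. The labels give no treatment, time, density or passage that sets control B and miR-200 A apart. They do not say whether cultures of 1 vector were transduced separately, so p-values below measure spread between these cultures only. In the main fit that is the spread left once the gap of control B and miR-200 A to the others is fitted. Each culture was hybridised to 1 Affymetrix mouse array, and values are log2 signals after quantile normalization.

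The cell cycle is run by waves of transcription. E2F factors drive the genes of DNA replication at the start of S phase, and a later wave, whose promoters often carry a CHR element and CCAAT boxes, makes the cyclins, kinases, kinesins and kinetochore proteins of mitosis. Cells that leave the cycle keep both waves repressed, and cyclin-dependent kinase inhibitors such as p21 (Cdkn1a) take part in that exit. Tumour cells that carry active K-ras also commonly secrete CXC chemokines, a group that NF-kB induces. The miR-200 family is known for holding down the transcription factors Zeb1 and Zeb2 and so favouring epithelial genes.

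The divergent arrays carried lower levels of nearly every measured gene of mitosis and most of DNA replication. Called higher, beside 3.85% of all genes, were 14 of 36 chemokines and cytokines and 10 of 32 hypoxia and glycolysis genes. So were 10 of 41 mesenchymal and matrix genes, 9 of 36 interferon response genes and 4 of 23 NF-kB and acute phase genes. Of 18 matrix metalloproteinases, counted by name after the values were seen, 4 were higher. Lower were 2 interferon response genes, 1 chemokine, 1 mesenchymal and matrix gene and 1 matrix metalloproteinase. Counts for other lists are given below. For each gene the within-vector difference is control B minus the mean of controls A and C, or miR-200 A minus the mean of miR-200 B and C, and the state difference is the mean of both, which is also the coefficient of the 2-level term in a fit with the vector as the other term. A gene is called higher or lower where both divergent arrays lay beyond both other arrays of their vector on the same side and the state difference was at least 1 on the log2 scale. Of 18193 genes, 700 were called higher and 700 lower, 3.85% in each direction. In 498 of the higher and 507 of the lower genes the brighter side lay above 5.28. That is the highest signal among the control probe sets for the bacterial trp gene, taken here as a gauge of background. With a minimum of 2 on the log2 scale, 148 genes (0.813%) were higher and 190 (1.04%) lower. On the same side at any size lay 8393 genes (46.1%), and on opposite sides 3093 (17.0%).

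Before any gene is named, the arrays themselves can be set side by side. Among the 10916 brightest genes, 10 differed by 1 log2 unit or more between controls A and C and 9 between miR-200 B and C. Control B differed to that extent from controls A and C at 762 and 742 genes, and miR-200 A from miR-200 B and C at 1117 and 1192. Control B and miR-200 A differed from each other at 720 genes, against 558 to 787 genes between the other control and miR-200 cultures. The ratio of 3' to 5' signal for Gapdh, a measure of RNA integrity, was between -0.31 and -0.25 (log2) on all 6 arrays, and that for beta-actin was 0.17 in control B and 0.21 in miR-200 A against 0.09 to 0.14 on the others. The poly-A spikes, RNA added before labelling, had a median of 7.82 on miR-200 C and of 8.43 to 8.61 on the other 5 arrays. The part of these values in the differences was not tested.

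**Figure D1:**
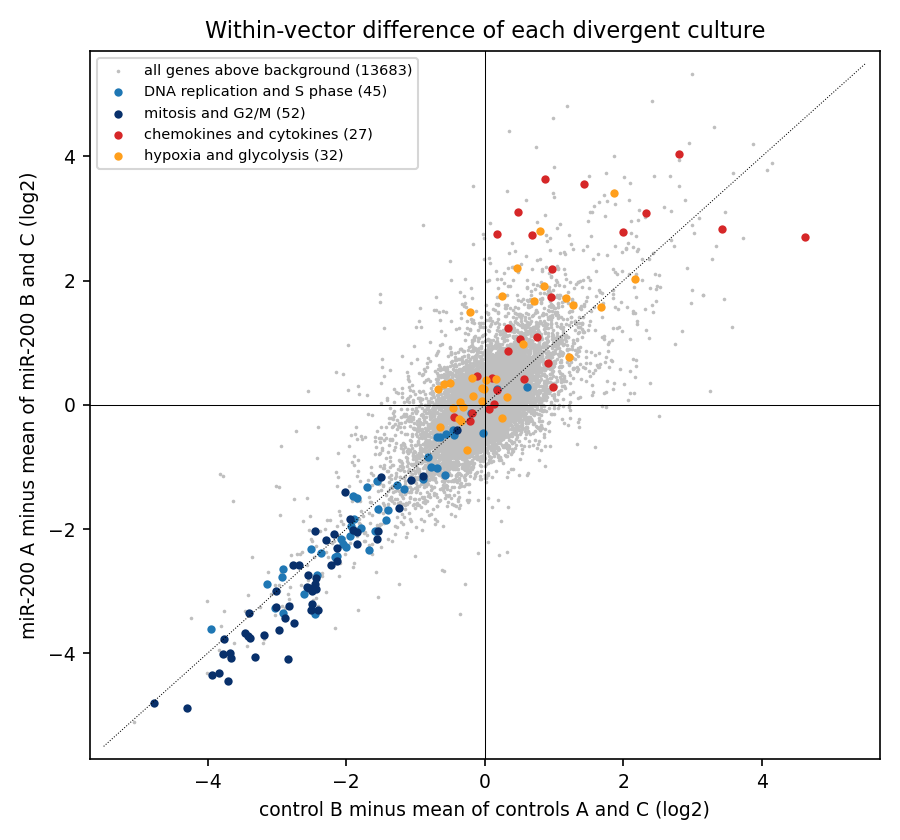
Each point is a gene whose brighter side lies above the background gauge, placed by its difference within the control vector (x axis, log2) and within the miR-200 vector (y axis, log2), with 4 gene lists in colour and the line of equality dotted. Genes of mitosis and DNA replication lie in the lower left along the line, with list medians of -2.54 and -1.70 on the x axis and -2.98 and -1.84 on the y axis, and some of the chemokines and hypoxia genes lie to the upper right.

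Genes of mitosis had the largest share called of the 24 gene lists. Of 52 measured genes of mitosis and G2/M, 51 were lower and none higher, beside 3.85% of all genes lower, with a median state difference of -2.75 against 0.01 over all genes. Cks1b, a partner of cyclin-dependent kinases, was the gene not called, with a state difference of -0.40. The list's median signal was 7.96 in control B and 7.88 in miR-200 A, and 10.68 to 11.02 on the other 4 arrays. Less RNA per cell and fewer cells in these phases cannot be told apart in bulk samples.

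The lowest genes relative to the other cultures were parts of the kinetochore, the spindle and the division machinery. Ska1, a subunit of the complex that couples kinetochores to microtubules, measured 10.02 and 10.12 on controls A and C and 10.07 and 9.92 on miR-200 B and C, but 5.01 in control B and 4.89 in miR-200 A, at least 26.99-fold lower. Birc5 (survivin, of the chromosomal passenger complex) measured 7.21 on control B against 11.997 and 11.96 on the other controls, and 7.10 on miR-200 A against 11.98 and 11.84 on the other miR-200 arrays, 27.6-fold lower, with within-vector differences of -4.77 in the control and -4.81 in the miR-200 vector. The groups did not overlap at either gene, and the other 4 cultures lay close to each other. Cenpf, a kinetochore protein of G2 and mitosis, measured 5.93 (control B) and 5.66 (miR-200 A), against 10.32 and 10.13 on controls A and C and 10.58 and 10.51 on miR-200 B and C, a state difference of -4.59. Kif20a, a kinesin of cytokinesis, followed with 9.45 and 9.37 on controls A and C and 9.38 and 9.89 on miR-200 B and C, but 5.71 in control B and 5.19 in miR-200 A. Of the Ndc80 complex, which grips microtubules at the kinetochore, Ndc80 (-3.84), Nuf2 (-3.77) and Spc24 (-3.90) were all among the 12 lowest genes, given as state differences. The same 12 held Cdc25c, the phosphatase that activates Cdk1 (-4.15), Shcbp1 (-3.89), Parpbp, an inhibitor of homologous recombination (-4.17), and Dscc1, which helps load the sister chromatid cohesion machinery (-3.88).

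Cyclins and kinases of mitosis were lower as well. Ccnb2 (cyclin B2) measured 7.66 on control B against 11.54 and 11.45 on the other controls, and 7.12 on miR-200 A against 11.43 and 11.45 on the other miR-200 arrays, 16.9-fold lower. Plk1, a kinase of mitotic entry and spindle assembly, measured 6.91 (control B) and 7.25 (miR-200 A), against 10.31 and 10.34 on controls A and C and 10.90 and 11.03 on miR-200 B and C. Cdk1 itself, the kinase these cyclins activate, was less reduced, with 12.27 and 12.27 on controls A and C and 12.70 and 12.73 on miR-200 B and C, but 10.33 in control B and 10.87 in miR-200 A, 3.72-fold lower. All 6 arrays still held Cdk1 well above the background gauge. Mki67, the source of the Ki-67 proliferation antigen, measured 8.08 on control B against 11.77 and 11.72 on the other controls, and 8.17 on miR-200 A against 12.15 and 12.34 on the other miR-200 arrays, and Top2a, which untangles chromosomes, measured 9.43 (control B) and 9.26 (miR-200 A), against 11.92 and 11.94 on controls A and C and 12.21 and 12.31 on miR-200 B and C. For both, each divergent array lay more than 2 log2 units under every other array. Foxm1, a transcription factor of the mitotic wave, had 9.69 and 9.81 on controls A and C and 9.65 and 9.54 on miR-200 B and C, but 6.74 in control B and 6.60 in miR-200 A, a state difference of -3.002.

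Probe sets of 1 gene did not always give equal values, and a gene is represented here by its brightest. With all probe sets of a gene averaged instead, state differences moved to -2.09 for Ska1 (1 of 3 probe sets called), -2.70 for Cenpf (2 of 3), -1.65 for Foxm1 (2 of 4) and -1.52 for Top2a (2 of 3), all still below 0. Brca1, Mcm5 and Rbl1, given further on, moved to -1.72, -2.08 and -1.11 in the same way.

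Whole families can be counted by name, a grouping made after the values were seen. Lower were 15 of 20 centromere proteins (Cenp), 5 of 6 condensin subunits (Ncap), which compact chromosomes, and 3 of 3 Ska subunits. Of 37 kinesins (Kif), the 10 lower were Kif4, Kif11, Kif14, Kif18a, Kif18b, Kif20a, Kif20b, Kif22, Kif23 and Kif2c, all motors with known work in mitosis, and the median over the whole family was 0.

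DNA replication genes were lower by less. Of 45 measured genes of DNA replication and S phase, 32 were lower and none higher, with a median state difference of -1.69. Their median signal was 8.66 in control B and 8.76 in miR-200 A against 10.10 to 10.39 on the other 4. Tk1, the thymidine kinase of S phase, measured 7.11 on control B against 11.15 and 10.97 on the other controls, and 7.45 on miR-200 A against 11.14 and 10.98 on the other miR-200 arrays, 13.7-fold lower. Mcm5, a subunit of the replicative helicase, measured 8.90 (control B) and 8.81 (miR-200 A), against 11.84 and 11.80 on controls A and C and 12.11 and 12.22 on miR-200 B and C, and all 6 of Mcm2 to Mcm7 were lower, with state differences from -3.13 to -1.39. Cdc6, which loads that helicase at origins, measured 9.73 and 9.82 on controls A and C and 9.84 and 10.25 on miR-200 B and C, but 6.75 in control B and 6.76 in miR-200 A. Uhrf1 (-2.85), which guides maintenance of DNA methylation, Brca1 (-3.01), of homologous recombination, and Pole (-2.78), the leading strand polymerase, were lower by state difference.

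Some members of the list were not called. Pcna, the sliding clamp, measured 12.37 on control B against 13.07 and 13.05 on the other controls, and 12.55 on miR-200 A against 13.09 and 13.06 on the other miR-200 arrays, so both divergent arrays were under the others by less than 1 log2 unit on average. The replication genes Cdc7 (0.45) and Pold1 (0.21) had state differences above 0 by their brightest probe sets. Of the 2 probe sets of Cdc7, the dimmer 1 was called. Over both cell cycle lists, 83 of 97 measured genes were lower.

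**Figure D2:**
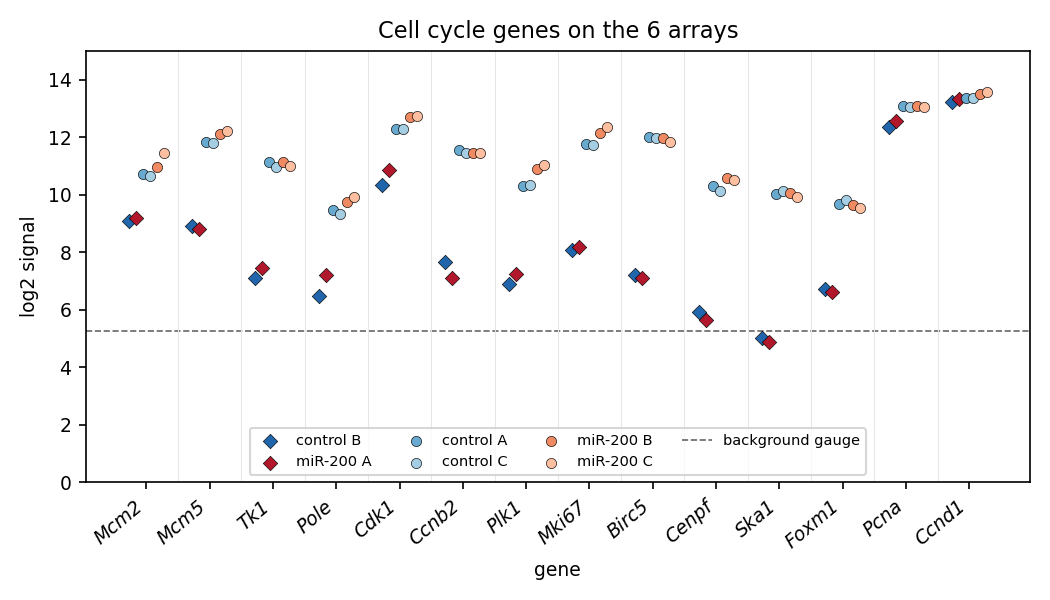
Log2 signals (y axis) of 14 cell cycle genes (x axis) on the 6 arrays, with diamonds for control B and miR-200 A, circles for the other 4 cultures and a dashed line at the background gauge of 5.28. From Mcm2 to Foxm1 both diamonds lie under all 4 circles, as at Birc5 with 7.21 and 7.10 against 11.84 or more, while at Ccnd1 all 6 lie between 13.23 and 13.56.

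Promoter sequences were set beside these counts, because late and early cell cycle genes are known to differ in their elements. RefSeq windows of the GRCm38.p6 build, 250 bases before to 50 after each gene's start, were found for 14367 of the genes, and all of a gene's windows were searched on both strands. A CHR (TTTGAA) was found for 31 of 43 mitosis genes with a window (72.1%), 7 of 38 replication genes (18.4%) and 15.7% of all genes. A CCAAT box (CCAAT) was found for 74.4%, 55.3% and 42.0% of the same sets. An E2F match (TTTGGCGC, TTTCGCGC or TTTCCCGC) was found for 3 of 43 mitosis genes (6.98%), 15 of 38 replication genes (39.5%) and 3.25% of all genes. Over the 396 lower genes with a window the shares were 29.3% for CHR, 56.6% for CCAAT and 14.1% for E2F, and over the 402 higher genes 13.9%, 45.02% and 2.74%. These shares describe letters in a window, and a match is neither a shown site nor a cause.

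The promoters of 3 mitosis genes and 2 replication genes among those above are printed to show the elements, 5' to 3' on the gene's strand. Capitals mark CHR and CCAAT matches in Ccnb2 (chr9:70421505-70421804, minus strand), Plk1 (chr7:122159185-122159484, plus strand) and Cenpf (chr1:189688037-189688336, minus strand). Capitals mark E2F matches in Mcm5 (chr8:75109259-75109558, plus strand), where matches on both strands overlap, and Cdc6 (chr11:98907901-98908200, plus strand).
Ccnb2: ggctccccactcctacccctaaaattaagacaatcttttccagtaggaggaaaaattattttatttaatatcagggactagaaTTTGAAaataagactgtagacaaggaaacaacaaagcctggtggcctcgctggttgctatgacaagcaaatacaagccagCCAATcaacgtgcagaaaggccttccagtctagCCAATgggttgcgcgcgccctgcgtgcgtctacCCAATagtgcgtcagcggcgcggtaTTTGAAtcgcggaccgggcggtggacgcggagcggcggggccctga
Plk1: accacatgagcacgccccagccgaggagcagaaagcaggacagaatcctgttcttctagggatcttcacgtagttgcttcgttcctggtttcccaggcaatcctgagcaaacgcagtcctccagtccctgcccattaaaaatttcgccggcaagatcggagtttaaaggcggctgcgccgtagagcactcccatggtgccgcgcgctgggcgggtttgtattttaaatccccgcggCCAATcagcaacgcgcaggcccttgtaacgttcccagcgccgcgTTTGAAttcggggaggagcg
Cenpf: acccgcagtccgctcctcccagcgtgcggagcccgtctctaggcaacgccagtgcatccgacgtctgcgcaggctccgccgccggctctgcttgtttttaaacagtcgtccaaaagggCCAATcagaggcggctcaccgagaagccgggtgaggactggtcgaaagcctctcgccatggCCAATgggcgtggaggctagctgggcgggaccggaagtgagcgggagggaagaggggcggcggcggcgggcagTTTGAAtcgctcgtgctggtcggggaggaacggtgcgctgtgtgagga
Mcm5: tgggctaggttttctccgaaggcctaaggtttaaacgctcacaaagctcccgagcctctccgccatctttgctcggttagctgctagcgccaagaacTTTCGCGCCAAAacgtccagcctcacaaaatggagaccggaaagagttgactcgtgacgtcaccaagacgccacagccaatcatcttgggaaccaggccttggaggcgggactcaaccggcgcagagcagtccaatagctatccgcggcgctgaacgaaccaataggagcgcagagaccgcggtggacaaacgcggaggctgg
Cdc6: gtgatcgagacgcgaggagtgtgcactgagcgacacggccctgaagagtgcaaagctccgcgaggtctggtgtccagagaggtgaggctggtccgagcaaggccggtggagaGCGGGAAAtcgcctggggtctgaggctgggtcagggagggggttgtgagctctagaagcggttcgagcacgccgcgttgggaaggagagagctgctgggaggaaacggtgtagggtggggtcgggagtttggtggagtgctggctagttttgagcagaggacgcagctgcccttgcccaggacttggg
In Ccnb2 the CCAAT boxes start 87, 54 and 21 bases before the gene's start and a CHR begins at base 5 of the transcript, counted from 1, with another CHR 167 bases before the start. Cenpf has the same order, with CCAAT boxes 132 and 71 bases before the start and a CHR at base 3, and Plk1 has 1 CCAAT box 14 bases before the start and a CHR at base 31.

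Regulators of the cycle went both ways. Of 29 measured inhibitors, D cyclins and quiescence genes, 3 were higher and 3 lower, with a median of 0.21. Cdkn1a (p21) measured 11.07 (control B) and 10.96 (miR-200 A), against 9.39 and 9.64 on controls A and C and 8.56 and 8.68 on miR-200 B and C, 3.87-fold higher, and both of its probe sets were called. Txnip, an inhibitor of thioredoxin that glucose induces, measured 11.26 and 10.83 on controls A and C and 10.44 and 10.61 on miR-200 B and C, but 13.31 in control B and 12.53 in miR-200 A, 4.39-fold higher. The third, Gadd45b, a stress sensor, had a state difference of 1.02. Lower were Rbl1 (p107), itself an E2F-regulated pocket protein (-1.90), and the inhibitors of Cdk4 and Cdk6 Cdkn2c (-1.06) and Cdkn2d (-1.64), as state differences. Cdkn1b (p27), a marker of quiescence at the protein level, was not called and lay lower on the divergent arrays, with 9.90 on control B against 11.09 and 10.97 on the other controls, and 10.58 on miR-200 A against 10.96 and 11.13 on the other miR-200 arrays. Cdkn2a, the locus of p16 and p19, measured 11.18 (control B) and 11.11 (miR-200 A), against 11.48 and 10.95 on controls A and C and 11.41 and 11.07 on miR-200 B and C, and these ranges overlapped.

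Regulators of G1 and the start of S phase did not all differ. Ccnd1 (cyclin D1) measured 13.23 (control B) and 13.34 (miR-200 A), against 13.34 and 13.35 on controls A and C and 13.51 and 13.56 on miR-200 B and C, and Myc measured 11.01 on control B against 10.92 and 11.07 on the other controls, and 11.56 on miR-200 A against 11.41 and 11.48 on the other miR-200 arrays. Ccne2 (cyclin E2), a partner of Cdk2 and a member of the replication list, was 3.05-fold lower. E2f1 was not called, with within-vector differences of -0.64 in the control and -0.52 in the miR-200 vector, whereas the repressors E2f7 and E2f8, themselves cell cycle genes, were the 2 of 8 E2F genes called lower. Of 19 measured p53 targets, 3 were higher (Cdkn1a, Pmaip1 and Trp53inp1) and 1, Plk3, lower with both sides under the gauge, for a median of 0.24. Trp53inp1 measured 10.99 (control B) and 11.88 (miR-200 A), against 9.40 and 9.10 on controls A and C and 8.28 and 8.01 on miR-200 B and C, 6.67-fold higher, and Pmaip1 (Noxa), a cell death gene, had a state difference of 1.41.

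Chemokines and cytokines were the list with most genes higher. Of 36 measured, 14 were higher, beside 3.85% of all genes, and 1 lower, with a median of 0.71; Ccl7, Tnf and the lower Ccl8 lay under the gauge on both sides. Cxcl2, a neutrophil chemokine, measured 6.43 and 6.55 on controls A and C and 7.12 and 6.65 on miR-200 B and C, but 9.29 in control B and 10.92 in miR-200 A, 10.7-fold higher. Ccl20, which draws Ccr6-bearing lymphocytes, measured 11.83 on control B against 9.81 and 9.88 on the other controls, and 10.82 on miR-200 A against 8.18 and 7.91 on the other miR-200 arrays, 5.22-fold higher. In Cxcl2 the divergent arrays stood above all 4 others, and in Ccl20 too. Cxcl1 measured 12.63 (control B) and 13.08 (miR-200 A), against 11.61 and 11.71 on controls A and C and 11.15 and 10.64 on miR-200 B and C, 2.98-fold higher, a smaller gap at a higher signal. Il1a, an alarm cytokine, measured 5.63 and 5.48 on controls A and C and 6.09 and 6.002 on miR-200 B and C, but 7.88 in control B and 9.13 in miR-200 A, 6.51-fold higher.

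Other members differed unequally between the 2 divergent cultures. Il6 was clearly above the gauge on control B alone, with 8.45 on control B against 3.45 and 4.20 on the other controls, and 4.81 on miR-200 A against 2.08 and 2.13 on the other miR-200 arrays. Cxcl5 was higher within each vector, with 13.52 (control B) and 11.99 (miR-200 A), against 12.65 and 12.67 on controls A and C and 8.53 and 8.19 on miR-200 B and C, but its within-vector differences were 0.87 in the control and 3.63 in the miR-200 vector, and miR-200 A lay under all 3 controls. Csf2 (GM-CSF) measured 8.39 and 7.64 on controls A and C and 7.82 and 7.15 on miR-200 B and C, but 8.49 in control B and 10.59 in miR-200 A, with its gap mainly on miR-200 A. Cxcl15 (3.13) and Il1rn (1.46), the interleukin 1 receptor antagonist, were higher too, whereas Ccl2, a monocyte chemokine, was not called (-0.24), all as state differences. By name, 6 of 13 CXC chemokines and 2 of 18 CC chemokines were higher, beside 3.85% of all genes. The 2 CC chemokines were Ccl20 and Ccl7, the latter under the gauge on both sides, and Ccl8 was lower.

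Of 23 NF-kB and acute phase genes, 4 were higher and none lower, with a median of 0.75. The list's median within-vector difference was 0.31 in control B and 0.83 in miR-200 A, so without miR-200 A the median is 0.31. Lcn2 (lipocalin 2), an iron-sequestering acute phase protein of epithelia, measured 12.62 on control B against 9.65 and 9.97 on the other controls, and 13.12 on miR-200 A against 9.82 and 9.38 on the other miR-200 arrays, 8.98-fold higher. Cebpd, a transcription factor of the acute phase, measured 11.86 (control B) and 11.92 (miR-200 A), against 10.31 and 10.27 on controls A and C and 8.91 and 8.52 on miR-200 B and C, and the adhesion receptor Vcam1 had a state difference of 1.31. Nfkbia, the feedback inhibitor of NF-kB, was not called by its brightest probe set, with 12.31 (control B) and 12.60 (miR-200 A), against 12.01 and 11.99 on controls A and C and 12.16 and 11.82 on miR-200 B and C. Of its 5 probe sets, 1 dimmer one was called. Lbp, which binds bacterial lipopolysaccharide, was among the 12 highest of all genes with 10.15 on control B against 7.30 and 7.12 on the other controls, and 10.93 on miR-200 A against 6.79 and 6.64 on the other miR-200 arrays, 11.9-fold higher.

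Promoters of the chemokines were searched for the NF-kB consensus on both strands. It was found for 9 of 26 chemokine and cytokine genes with a window (34.6%), 8 of 15 NF-kB and acute phase genes (53.3%) and 11.7% of all genes, and for 14.18% of the higher and 10.9% of the lower genes. A narrower form of the consensus, searched first, was found for 8 of the 26 and 3 of the 15, and for 1.89% of all genes. Cxcl2 (chr5:90903649-90903948, plus strand) and Cxcl1 (chr5:90890995-90891294, plus strand) are printed because both were higher and each holds a match to the full consensus that reads on both strands, in capitals.
Cxcl2: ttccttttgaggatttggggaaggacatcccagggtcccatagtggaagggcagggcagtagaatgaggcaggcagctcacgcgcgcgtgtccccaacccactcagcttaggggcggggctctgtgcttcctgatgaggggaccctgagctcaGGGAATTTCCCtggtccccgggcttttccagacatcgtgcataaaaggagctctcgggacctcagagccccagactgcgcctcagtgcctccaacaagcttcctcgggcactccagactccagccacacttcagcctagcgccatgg
Cxcl1: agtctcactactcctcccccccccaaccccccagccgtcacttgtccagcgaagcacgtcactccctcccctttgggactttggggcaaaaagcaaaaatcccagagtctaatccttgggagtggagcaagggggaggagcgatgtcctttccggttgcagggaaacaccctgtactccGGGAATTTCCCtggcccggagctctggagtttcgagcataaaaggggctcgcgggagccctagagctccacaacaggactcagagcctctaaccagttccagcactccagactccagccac
In Cxcl2 the match starts 97 bases before the gene's start and in Cxcl1 71 bases before it.

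Of 18 matrix metalloproteinases (Mmp), counted by name after the values were seen, 4 were higher and 1, Mmp12, lower, with a median of 0.13. Mmp7, the fourth, and Mmp12 lay under the gauge on both sides. Mmp13, a collagenase, measured 9.67 (control B) and 12.34 (miR-200 A), against 6.81 and 6.54 on controls A and C and 6.91 and 7.11 on miR-200 B and C, 17.9-fold higher, with within-vector differences of 2.997 in the control and 5.33 in the miR-200 vector. Mmp10, a stromelysin, measured 5.43 and 6.27 on controls A and C and 6.41 and 6.29 on miR-200 B and C, but 7.04 in control B and 11.15 in miR-200 A, and Mmp3, another stromelysin, measured 7.13 on control B against 6.01 and 6.25 on the other controls, and 9.55 on miR-200 A against 6.28 and 6.12 on the other miR-200 arrays. In all 3 miR-200 A was higher than control B by more than 2 log2 units, while the other 4 arrays lay within about 1 unit of each other. The plasminogen activator Plat measured 9.30 (control B) and 10.99 (miR-200 A), against 7.88 and 7.70 on controls A and C and 7.31 and 7.29 on miR-200 B and C, 6.05-fold higher, and Plau (urokinase) had a state difference of 1.59. Fn1 (fibronectin) measured 10.59 and 10.50 on controls A and C and 11.43 and 11.60 on miR-200 B and C, but 12.32 in control B and 12.38 in miR-200 A, 2.49-fold higher. Of 41 mesenchymal and matrix genes, 10 were higher and 1, S100a4, lower, with a median of 0.14, so the list's centre lay near that of all genes. S100a4, a calcium-binding protein of motile cells, measured 10.25 on control B against 12.49 and 12.31 on the other controls, and 9.66 on miR-200 A against 10.84 and 10.63 on the other miR-200 arrays.

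Interferon response genes were mixed. Of 36 measured, 9 were higher and 2 lower (Ifit2 and Psmb10), with a median of 0.61, which was 0.30 without control B and 0.37 with the dimmest 40% of probe sets left out. Bst2 (tetherin) measured 9.34 (control B) and 8.75 (miR-200 A), against 7.30 and 7.10 on controls A and C and 7.53 and 6.96 on miR-200 B and C, 3.53-fold higher, and Usp18, which trims ISG15 from proteins, measured 5.30 and 5.03 on controls A and C and 4.90 and 5.55 on miR-200 B and C, but 7.70 in control B and 7.12 in miR-200 A, at least 4.38-fold higher. Ifit2, a direct interferon target, went the other way with 6.69 on control B against 8.05 and 7.77 on the other controls, and 6.52 on miR-200 A against 7.49 and 7.64 on the other miR-200 arrays. Of 6 guanylate-binding proteins (Gbp), 4 were higher, and Gbp6 measured 7.13 (control B) and 5.58 (miR-200 A), against 3.47 and 3.86 on controls A and C and 2.56 and 2.40 on miR-200 B and C, at least 2.11-fold higher. Signals of Gbp2 and Gbp3 were near the gauge.

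Genes of several other kinds were among the 12 highest. Ivl (involucrin), a precursor of the cornified envelope, measured 6.60 and 7.09 on controls A and C and 5.81 and 5.67 on miR-200 B and C, but 10.92 in control B and 9.52 in miR-200 A, 15.2-fold higher. Muc4, a membrane mucin, measured 8.04 on control B against 4.78 and 4.69 on the other controls, and 9.17 on miR-200 A against 4.53 and 4.86 on the other miR-200 arrays, at least 10.02-fold higher, by the 1 of its 3 probe sets that was called. The mean of the 3 gave a state difference of 1.33 for Muc4, and of 1.32 for Aldh1a3, where 1 of 3 was called too. At Ivl and Muc4 the 4 other arrays lay under every divergent one by more than 2 log2 units. Also among the 12 were Bst1, an ADP-ribosyl cyclase of the cell surface (at least 7.31-fold), Aldh1a3, a retinaldehyde dehydrogenase (8.52-fold), Chchd10, a mitochondrial protein (7.66-fold), Cxcl15, and the pseudogene Fut4-ps1, whose other arrays ranged from 0.55 to 5.69. Rgs2, a brake on G protein signalling, measured 8.92 (control B) and 11.09 (miR-200 A), against 5.53 and 5.14 on controls A and C and 7.52 and 7.19 on miR-200 B and C, 12.6-fold higher. Cyp1b1, a cytochrome P450 of the aryl hydrocarbon response, measured 8.85 and 8.69 on controls A and C and 5.66 and 5.68 on miR-200 B and C, but 11.87 in control B and 8.68 in miR-200 A, 8.29-fold higher within the vectors, although miR-200 A lay close to controls A and C.

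Of 32 hypoxia and glycolysis genes, 10 were higher and none lower, with a median of 0.17. The median within-vector difference was 0.01 in control B and 0.37 in miR-200 A. Ankrd37, a HIF target, measured 8.84 on control B against 7.002 and 6.96 on the other controls, and 10.06 on miR-200 A against 6.64 and 6.65 on the other miR-200 arrays, 6.23-fold higher. Car12, a carbonic anhydrase, measured 8.88 (control B) and 9.01 (miR-200 A), against 6.95 and 6.49 on controls A and C and 7.06 and 6.92 on miR-200 B and C, 4.27-fold higher. Vegfa, the angiogenic factor, measured 10.93 and 11.03 on controls A and C and 10.22 and 10.12 on miR-200 B and C, but 11.84 in control B and 12.08 in miR-200 A, 2.61-fold higher. Adm, Ddit4, Ero1a, Kdm3a, Ndrg1, P4ha2 and Pfkfb3 were the other members called, with state differences of 1.01 to 1.80, and the remaining 22 genes were not called. Adm, a vasodilator peptide, had within-vector differences of 0.47 in the control and 2.20 in the miR-200 vector, and Ddit4, an inhibitor of mTORC1, of 0.25 in the control and 1.76 in the miR-200 vector.

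Lists of stress and recycling genes had 1 to 3 members called, all of them higher. The shares were 18.2% for heat shock, 12.5% for the amino acid response, 12% for lysosome and autophagy and 5.88% for the unfolded protein response. Over all genes 3.85% were higher. Hspa1a, an inducible Hsp70, measured 9.17 on control B against 6.91 and 6.61 on the other controls, and 10.85 on miR-200 A against 6.06 and 5.87 on the other miR-200 arrays, 12.5-fold higher, and Hspa1b, a near-identical copy whose probes may share signal with it, 4.05-fold higher. They were the 2 called of 11 heat shock genes, for a median of 0.07. All 17 genes of the unfolded protein response had state differences above 0, with a median of 0.57 and only Dnajb9, an ER chaperone partner, called (3.79-fold). Of 24 amino acid response genes 3 were higher (Cth, Vldlr and Slc7a11), with a median of 0.38. Slc7a11, the cystine transporter, had within-vector differences of 0.34 in the control and 4.41 in the miR-200 vector, and Vldlr, a lipoprotein receptor, of 0.90 in the control and 2.63 in the miR-200 vector, so both lie under the minimum of 1 without miR-200 A. Of 25 lysosome and autophagy genes 3 were higher (Hexa, Gaa and Sqstm1), with a median of 0.50. Hexa, a lysosomal hexosaminidase, measured 10.53 (control B) and 9.86 (miR-200 A), against 8.52 and 8.58 on controls A and C and 7.37 and 7.43 on miR-200 B and C, 4.65-fold higher.

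Averaging a gene's probe sets also lowered some of the higher genes. Their state differences became 2.12 for Lbp, 1.94 for Gbp6, 2.00 for Cxcl15, 1.26 for Plat, 1.5001 for Slc7a11, 1.05 for Egr3, 0.74 for Tgfbr1, 0.69 for Nfkbiz, 0.67 for Dsc2 and 0.52 for Inhba, the last 4 under the minimum of 1. Without miR-200 A, Cxcl1 (0.97), Cxcl5 (0.87), Mmp3 (0.999), Vegfa (0.86), Pmaip1 (0.92), Atf3 (0.81), Bmp2 (0.95) and Dsc2 (0.34) lay under that minimum too. So did Vcam1 (0.938), Nfkbiz (0.955), Sqstm1 (0.854) and Ereg (0.919). Of the lower genes, Fosl1 (-0.83), Id3 (-0.595) and Etv4 (-0.475) fell short of it in size.

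**Figure D3:**
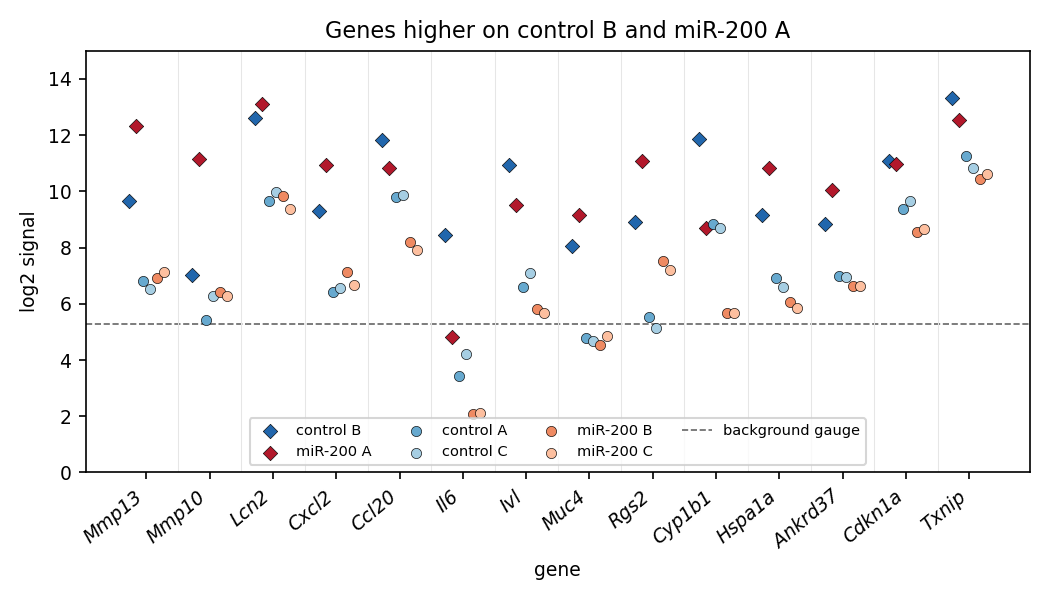
Log2 signals (y axis) of 14 genes called higher (x axis) on the 6 arrays, with diamonds for control B and miR-200 A, circles for the other 4 cultures and a dashed line at the background gauge of 5.28. Both diamonds lie above all 4 circles at Mmp13, Lcn2 and Ivl, whereas at Cyp1b1 miR-200 A (8.68) lies level with controls A and C (8.85 and 8.69), and at Il6 it lies under the dashed line.

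Several programmes held no called gene, beside 7.70% of all genes called higher or lower. Lists this short would hold few called genes at that share, so the absence of calls says little by itself. These were cholesterol and fatty acid synthesis (25 genes, median -0.26), ribosome biogenesis with Myc targets (28 genes, -0.01), oxidative phosphorylation (23 genes, -0.22), oxidative stress with metallothioneins (12 genes, 0.28) and the reference genes (11 genes, -0.05). No cytosolic ribosomal protein gene was called of 54. TGF-beta targets and ligands had 4 higher and 1 lower of 19 genes (median 0.31), immediate early genes 3 and 2 of 26 (0.09), YAP/TEAD targets 2 and 0 of 14 (0.01), and lung and gut differentiation genes 2 and 2 of 29 (-0.04). Within the TGF-beta list Tgfbr1, a receptor, was 2.51-fold higher and Id3, a target of BMP signalling, 3.11-fold lower, the latter mainly on miR-200 A. Fosl1 and Etv4, targets of the MAPK pathway, had state differences of -1.03 and -1.03, while Atf3 (1.23), Egr3 (1.60) and the growth factor Ereg (1.01) were higher.

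Of 34 epithelial junction and identity genes, 2 were higher (Mal2 and Dsc2), with a median of 0.16. Cdh1 (E-cadherin) measured 13.38 (control B) and 13.46 (miR-200 A), against 13.16 and 13.14 on controls A and C and 13.23 and 13.28 on miR-200 B and C, and Vim (vimentin) measured 13.62 on control B against 13.82 and 13.86 on the other controls, and 13.58 on miR-200 A against 13.69 and 13.70 on the other miR-200 arrays. Krt8, Krt18, Epcam and Actb had state differences of -0.16, -0.03, 0.23 and -0.08, and Zeb1 one of -0.75, none of them called by the brightest probe set. Of the 2 probe sets of Epcam, the dimmer 1 was called. Esrp1, a splicing factor of epithelial cells that was high in the miR-200 cultures, measured 3.49 (control B) and 9.64 (miR-200 A), against 2.68 and 2.68 on controls A and C and 8.90 and 9.23 on miR-200 B and C, and Nid1, a basement membrane protein, measured 11.10 (control B) and 4.52 (miR-200 A), against 11.11 and 11.15 on controls A and C and 4.34 and 4.75 on miR-200 B and C. At both genes each divergent culture sat with its own vector. Both genes were chosen with earlier results of these data known, so this is not an independent check of the titles.

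Markers of cells other than the tumour line were looked at as a list. Of 26 measured stromal, endothelial and blood markers, 8 lay under the gauge on all 6 arrays, 2 were higher (Cd68 and S100a9) and 1, Dcn, was lower with both sides under the gauge. Cd68, a lysosomal glycoprotein of macrophages and other cells, measured 8.87 on control B against 6.81 and 6.46 on the other controls, and 8.98 on miR-200 A against 5.73 and 5.97 on the other miR-200 arrays, 6.41-fold higher. Cd14, a receptor for lipopolysaccharide on myeloid cells, measured 9.54 (control B) and 11.86 (miR-200 A), against 9.97 and 9.68 on controls A and C and 9.95 and 9.70 on miR-200 B and C, high on miR-200 A alone. The leucocyte markers Adgre1 and Csf1r, at signals of 8.55 to 9.94, were not called, with state differences of 0.01 and -0.05. The list's summed linear signal was 3379 to 6895 on the divergent arrays and 3236 to 3655 on the others, and 2912 to 6390 against 3124 to 3602 without Cd68. The part of such cells in the differences was not tested.

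**Figure D4:**
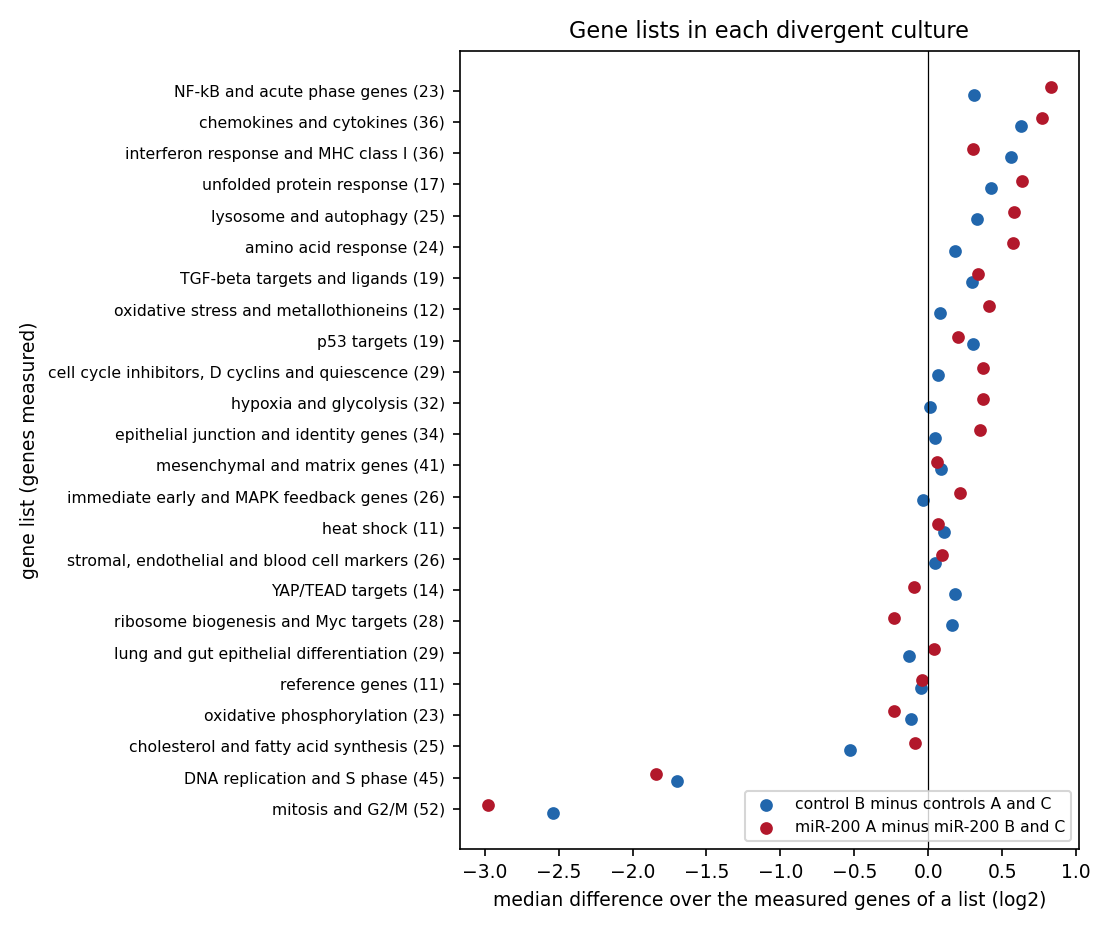
Median difference over the measured genes of each of 24 lists (x axis, log2; y axis, lists with the number of genes) for control B (blue) and miR-200 A (red) against the other 2 cultures of their vector. The 2 cell cycle lists lie at -1.70 to -2.98 in both cultures, and the other lists lie between -0.53 and 0.83.

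The lower and the higher genes can be compared for how alike they were in both cultures, as a description. Among the 507 lower genes above the gauge, the median within-vector differences were -1.49 in control B and -1.59 in miR-200 A, and 50 genes (9.86%) differed by more than 1 log2 unit between the cultures. Among the 498 higher genes the medians were 1.19 and 1.61, and 152 genes (30.5%) differed by that much. Across genes, which are not independent replicates, the within-vector differences had a Pearson correlation of 0.71 in the lower and 0.24 in the higher genes, of 0.76 over the 10916 brightest genes and of 0.44 over all 18193. These are descriptions of values from which the genes were called.

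Beside the state term, the miR-200 difference could be tested. The question is which genes separate the vectors once the gap between cultures is fitted, and the term was read from the same values, so the p-values come out too small, by how much is not known. With the term, limma passed 946 of 45037 probe sets (2.10%) at an adjusted p of 0.05, and 480 genes (2.64%) by their brightest probe set, 130 higher and 350 lower in the miR-200 cultures, and without it 172 (0.945%), of which 171 were shared. Leaving out control A, control C, miR-200 B or miR-200 C left 0 genes, with 2881 to 3424 at an unadjusted p under 0.05 against 4133 with all arrays, and leaving out both divergent arrays left 58. With the dimmest 40% of probe sets left out, 2271 genes passed. No gene of either cell cycle list passed the miR-200 test, and the lists' median miR-200 differences were 0.17 for replication and 0.04 for mitosis.

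Some genes carried both differences. Of the 480, 93 were also called in the state difference, 19.4% beside 7.70% of all genes. They made up 6.64% of the 1400 state-called genes, beside 2.64% of all genes past the miR-200 test. The part of signal level in this overlap was not tested. Of the 93, 54 were higher on the divergent arrays and lower with miR-200. The other 39 were 14 higher in both, 10 lower on the divergent arrays and higher with miR-200, and 15 lower in both. Without the state term, 2 of the 172 genes were state-called (1.16%). That low share follows from the fit, because the gap of the divergent arrays then counts as residual spread and genes with a large gap seldom pass. Cyp1b1 fell with miR-200 (-3.13 ± 0.10, log2 ± SE, limma adjusted p = 0.00727) in the values given above. Ndnf, a secreted neurotrophic factor, measured 9.89 and 9.73 on controls A and C and 6.46 and 6.42 on miR-200 B and C, but 11.80 in control B and 8.59 in miR-200 A, so that it was higher on the divergent array of each vector while it fell with miR-200 (-3.32 ± 0.11, log2 ± SE, limma adjusted p = 0.00727). Plagl1, an imprinted zinc finger regulator, measured 7.24 on control B against 4.77 and 4.95 on the other controls, and 10.57 on miR-200 A against 8.38 and 8.06 on the other miR-200 arrays and was higher in both respects, with a miR-200 change of 3.35 ± 0.13, log2 ± SE, limma adjusted p = 0.0102. Epas1 (HIF-2 alpha), a transcription factor of the hypoxia response, fell with miR-200 (-2.58 ± 0.19, log2 ± SE, limma adjusted p = 0.0208) and was 5.46-fold higher on the divergent arrays. Rgs2 rose with miR-200 (2.07 ± 0.17, log2 ± SE, limma adjusted p = 0.0243). Dscc1 fell (-1.01 ± 0.11, log2 ± SE, limma adjusted p = 0.0396) and was the only one of the 12 lowest genes to pass the miR-200 test. Without the state term these 6 did not pass, with limma adjusted p of 0.185 for Ndnf, 0.226 for Plagl1, 0.338 for Epas1, 0.344 for Cyp1b1, 0.596 for Rgs2 and 0.818 for Dscc1. With both divergent arrays left out, Cyp1b1 and Ndnf still passed, and the other 4 had limma adjusted p from 0.0556 for Plagl1 to 0.0944 for Rgs2. With probe sets averaged by gene, Rgs2 (limma adjusted p = 0.0799) and Dscc1 (0.0777) did not pass.

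The same held for several genes of the lists above. Egr3 (-2.57 ± 0.24, log2 ± SE, limma adjusted p = 0.0306), Bmp2 (-2.45 ± 0.27, log2 ± SE, limma adjusted p = 0.0381) and Timp3, an inhibitor of matrix proteases (-1.97 ± 0.20, log2 ± SE, limma adjusted p = 0.0346), fell with miR-200 and were higher on the divergent arrays. Inhba, an activin subunit (2.004 ± 0.21, log2 ± SE, limma adjusted p = 0.0363), and Pfkfb3, an activator of glycolysis (1.21 ± 0.10, log2 ± SE, limma adjusted p = 0.0257), rose with miR-200 and were higher there too. When probe sets were averaged by gene, Egr3 (limma adjusted p = 0.0559) and Inhba (0.109) no longer passed, and without the state term none of these 5 did, with limma adjusted p from 0.200 for Egr3 to 0.482 for Pfkfb3. With both divergent arrays left out, Bmp2 alone of the 5 passed. The chemokines Cxcl5 and Ccl20 did not pass, at -3.38 ± 0.63, log2 ± SE, limma adjusted p = 0.0872 and -1.54 ± 0.21, log2 ± SE, limma adjusted p = 0.0551. Among genes that separated the vectors with little state difference, Esrp1 rose (6.31 ± 0.14, log2 ± SE, limma adjusted p = 0.004) and Nid1 fell (-6.59 ± 0.14, log2 ± SE, limma adjusted p = 0.004).

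**Figure D5:**
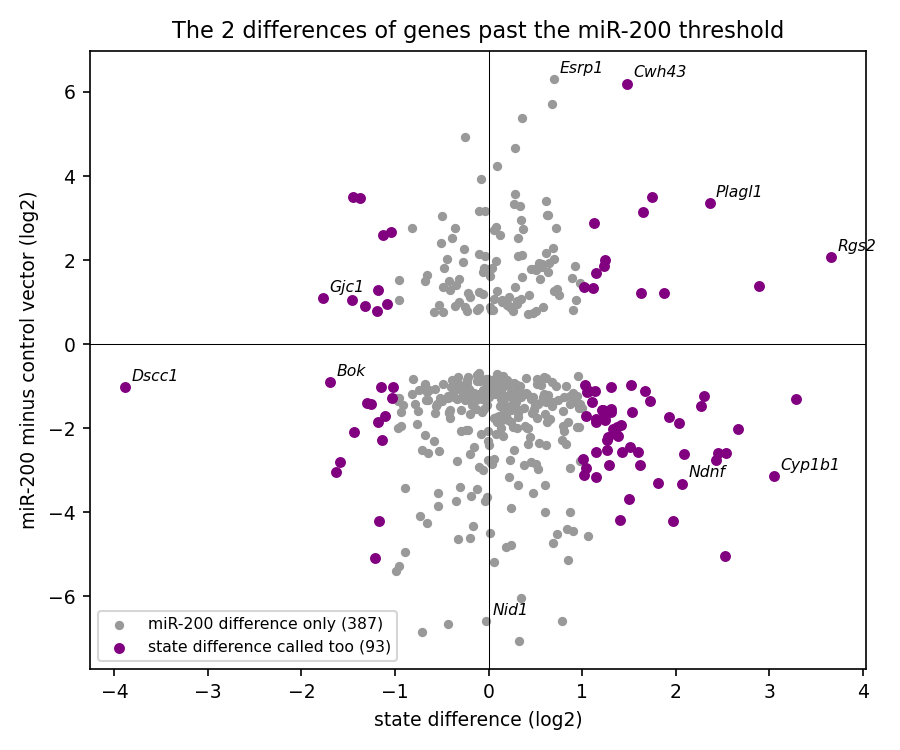
Each point is 1 of the 480 genes past the miR-200 threshold in limma with the state term, placed by its state difference (x axis, log2) and its miR-200 minus control difference (y axis, log2), with the 93 genes also called in the state difference in purple. Most points lie within 1 log2 unit of 0 on the x axis, as Nid1 at -0.03, while Rgs2 lies at 3.66 and Dscc1 at -3.88.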

How the data were processed

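Gene expression was measured on 6 Affymetrix mouse arrays, 1 per culture, hybridised with biotin-labelled cRNA per the labels' protocols. The log2 signals were deposited by the authors as 1 table of 45101 probe sets; the labels name the smaller 430A 2.0 design, and the sources used here name no method for summarising or scaling signals. The arrays were quantile normalized (limma 3.58.1, R 4.3.3), 64 control probe sets were then left out, and each of 18193 genes was represented by the brightest probe set that carries its symbol and no other, with symbols updated through RefSeq. Array values hold no counts, and the number of arrays, 3 per vector, limits the precision.

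The state difference is the coefficient of a 2-level term (control B and miR-200 A against the other 4) beside the vector, and it is not tested because that contrast was read from these values. The miR-200 difference beside it was tested with limma (lmFit, eBayes, two-sided) over all 45037 probe sets with Benjamini-Hochberg adjustment and a threshold of 0.05. Where the dimmer side lay under the background gauge of 5.28, a fold is a lower bound, taken from the brighter mean and the gauge. The fit was tested on simulated data. The members, the 24 gene lists (674 symbols, 633 measured) and the families were chosen with earlier results of these data known. Named genes are the 12 highest and 12 lowest by the smaller within-vector difference, up to 6 per list, the 4 largest opposite genes and a fixed set of cell cycle, chemokine and identity genes; others are named as examples of a count, chosen after their values were seen. Alternatives were the deposited values, median centring, a filter on the dimmest 40% of probe sets, all probe sets of a gene averaged, each array left out, a minimum of 2, the miR-200 fit without the term, without both arrays, with the replicate letter as a block, and with a variance trend and robust estimation.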

Additional observations from a re-analysis of the deposited data

Results flagged for a closer look

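The results in this part were picked out because control B lay beyond the other controls on one side while miR-200 A lay beyond the other miR-200 cultures on the opposite side; the difference between the vectors was not tested in any of them. The values are the miR-200 A difference minus the control B difference on the log2 scale. Ccng2, cyclin G2, stood at 3.18, with a within-vector difference of -1.51 in the control vector and 1.66 in the miR-200 vector, at signals of 9.24 to 11.23. Glod5 (4.46), Erc2 (5.40) and Rbp7 (3.47) had means under the background gauge on both sides.

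Among the gene lists, the median signal of a list on each array was set side by side in the same way. Epithelial junction and identity genes differed by 0.71, with a median signal of 8.76 on control B under 8.94 and 8.95 on the other controls, and of 9.89 on miR-200 A over 9.37 and 9.35. Immediate early and MAPK feedback genes differed by 0.59, the inhibitors, D cyclins and quiescence genes by 0.55, oxidative stress genes with metallothioneins by 0.19 and YAP/TEAD targets by -0.47, the last with control B above the other controls. Gene by gene, the median within-vector difference in control B was above 0 for the epithelial (0.04), quiescence (0.07) and oxidative stress (0.08) lists, as it was in miR-200 A (0.35, 0.37 and 0.41), so these 3 lists went opposite ways in their array medians but not in their median gene.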

How the results depend on the processing

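The 700 higher and 700 lower genes became 697 and 695 with the deposited values, and 679 and 768 after median centring. With the dimmest 40% of probe sets left out, 414 were higher and 482 lower, the construction testing fewer genes, and the interferon median was 0.37; with a minimum of 2, 148 were higher and 190 lower; the mean of probe sets gave a mitosis median of -2.24. Leaving out each array gave 782 to 1281 higher and 739 to 1111 lower genes, medians of -1.84 to -1.65 for replication and 0.30 (without control B) to 0.60 for interferon. The median of NF-kB and acute phase genes was 0.31 without miR-200 A. The top counts, 1281 and 1097 without control B and 1063 and 1111 without miR-200 A, rest on 1 divergent array. No called named gene changed sign; 19 moved by over 1.5 times with the mean of probe sets, 9 without control B and 20 without miR-200 A, where Slc7a11 stood at 0.34, Cxcl5 at 0.87 and Mmp10 at 1.19.

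The miR-200 test with the term (946 probe sets, 480 genes) gave 4606 and 2271 without the dimmest 40%, 335 and 172 without the term, 103 and 58 without both arrays, 5369 and 2723 with a variance trend and robust estimation. Each array left out gave 0 to 103 probe sets and 0 to 58 genes: 58 without control B or miR-200 A, where the term takes up the other, and 0 without any of the other 4. The cause of the other shifts was not tested. Letters A, B and C pair no cultures in the labels. Deviations of same-letter arrays correlated at -0.58, -0.67 and 0.43, and no control array correlated best with its own letter. Control B and miR-200 A, which stood apart under different letters, correlated at 0.71 in the same deviations. Their gap shapes the same-letter values, so these cannot decide whether the letters pair cultures. With the replicate block limma passed 0 probe sets and 0 genes, both without the term (1720 genes at an unadjusted p under 0.05) and with it (2535).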

Other observations

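Other genes, chosen after their values were seen, stood beside those described. Cp (ceruloplasmin), a copper-carrying acute phase protein, measured 11.80 (control B) and 12.63 (miR-200 A) against 8.68 to 9.16 on the other 4 arrays, 10.3-fold higher. Tgm2, a transglutaminase that cross-links matrix proteins, was 6.04-fold higher, and Gstm2, a glutathione S-transferase, 4.03-fold higher. Smox, spermine oxidase, was 5.41-fold higher and the scavenger receptor Olr1 at least 6.68-fold. Maf, a transcription factor, measured 11.87 (control B) and 10.75 (miR-200 A) against 9.19 and 9.20 on controls A and C and 7.08 and 7.06 on miR-200 B and C.

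On the lower side, Esco2, an acetyltransferase of sister chromatid cohesion, was 14.3-fold lower, Clspn (claspin), of the replication checkpoint, 10.4-fold, and Pclaf, a partner of the sliding clamp, 9.45-fold. Of 15 tubulin genes 4 were lower, beside 3.85% of all genes, among them Tubb6 with 10.83 and 10.55 on the divergent arrays against 11.83 to 12.17. Of 48 keratins, 3 (Krt23, Krt20 and Krt83) were higher and 1, Krt14, a keratin of basal cells, lower. These counts stand beside 3.85% of all genes in each direction, and the keratin median was 0.03.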
